A study of Caenorhabditis elegans with 2 samples.

Results

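The nuclear genes of the mitochondrial respiratory chain were examined for binding by MDT-29 in whole Caenorhabditis elegans L4 larvae. Members were the nuclear protein-coding genes of the Ensembl annotation whose symbols start with nuo-, cox-, cyc-, ucr-, sdha-, sdhb-, sdhd-, atp-, asb- or asg-, together with gas-1, isp-1 and mev-1. This rule found 45 genes among 19973 nuclear protein-coding genes. A gene was called bound when a summit from the authors' main list of 1705 peaks fell no more than 500 bp from a 5' end of any of its protein-coding transcripts. By that measure 8 of the 45 members were bound.

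MDT-29 belongs to Mediator, a large complex that passes signals from transcription factors to RNA polymerase II. Its binding was mapped by ChIP-seq, the sequencing of DNA fragments recovered with a protein, in 2 biological replicates of strain RJP4521, and no other group was studied. The strain carries allele rp133, a Degron::GFP insertion made by CRISPR at mdt-29 on chromosome III, and the protein was recovered with an antibody to GFP. The labels write the fusion also as mdt-29-eGFP and in one field name the target mt-29. Animals were 48 hours old and had been synchronised as starved L1 larvae after bleaching. Because whole larvae were used, strong binding in a few cells and weaker binding in many cannot be told apart. An input or untagged sample was not analysed here.

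The respiratory chain lies in the inner mitochondrial membrane. Complex I oxidises NADH and complex II succinate, and both pass electrons through ubiquinone to complex III, which hands them to cytochrome c and from there to oxygen at complex IV. The proton gradient built along the way drives complex V, the ATP synthase. Most subunits are encoded in the nucleus and a few in mitochondrial DNA. None of the 7 peak lists used here held a peak on the mitochondrial genome, so those genes could not be described.

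Binding at the 8 genes lay in complexes II to V. The bound genes were mev-1 of complex II, cyc-1 of complex III, cox-5A, cox-5B and cox-6B of complex IV, and atp-1, atp-4 and asb-2 of complex V. The share bound was 17.8% (exact Clopper-Pearson 95% interval 8.0 to 32.1%), beside 3.54% of all nuclear protein-coding genes (708 of 19973). The interval covers the counting of genes only and treats them as independent. Since members were chosen with earlier results of these data known, this share was not tested.

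Sequence around 5 of the summits is shown first, to let the positions be read beside the values. Each window runs 50 bases to either side of the summit, 5' to 3' along the strand of the member gene. The sequence is that of RefSeq's WBcel235 assembly, which is ce11. The windows of atp-1, cox-5B and cyc-1 are not shown. Capitals mark AAGTGCGC and TGACGCAT on either strand, a pair of 8-base words picked after the sequences had been seen.
cox-5A, chrIII:12905155-12905255, plus strand: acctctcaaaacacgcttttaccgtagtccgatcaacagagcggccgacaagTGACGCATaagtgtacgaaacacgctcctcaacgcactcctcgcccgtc
mev-1, chrIII:10334100-10334200, plus strand: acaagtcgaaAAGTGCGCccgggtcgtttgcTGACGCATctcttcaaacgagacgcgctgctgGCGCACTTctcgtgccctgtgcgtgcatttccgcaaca
cox-6B, chrIII:2786000-2786100, plus strand: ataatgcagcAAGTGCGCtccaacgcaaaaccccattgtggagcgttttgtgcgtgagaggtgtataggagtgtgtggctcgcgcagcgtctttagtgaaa
asb-2, chrX:4469841-4469941, plus strand: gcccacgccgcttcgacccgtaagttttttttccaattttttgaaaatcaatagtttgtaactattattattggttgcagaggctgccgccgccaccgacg
atp-4, chrV:6426986-6427086, minus strand: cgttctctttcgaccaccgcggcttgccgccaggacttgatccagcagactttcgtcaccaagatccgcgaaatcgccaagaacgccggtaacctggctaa
The windows of cox-5A and mev-1 lie upstream of the gene, and those of asb-2 and atp-4 inside it. That of cox-6B lies upstream of the 5' end of its shorter transcript, inside an intron of the longer one.

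Complex IV held the strongest binding of the respiratory chain. The gene cox-5A, for a subunit of cytochrome c oxidase, had the member peak of highest signal (chrIII:12905116-12905292). Signal is a value that the authors' processing gave to each peak, on a scale that may differ between the samples. It was 314 in the main list, place 70 of 1705, where the median peak had 99.5. In the ranked list of each sample the value at cox-5A was 144 in replicate 1 and 169 in replicate 2. Among all genes, ordered by the highest signal within 500 bp of a 5' end, cox-5A stood at place 37 in replicate 1 and 41 in replicate 2.

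The gene cox-5B, for another subunit of the same enzyme, was next, with a peak at chrI:9788549-9788868 of signal 199.5. Its values were 106 in replicate 1 and 97.2 in replicate 2, so the order of the samples was the reverse of that at cox-5A. The third bound subunit gene was cox-6B, with 49.8 in replicate 1 and 57.9 in replicate 2 and a peak of signal 104 at chrIII:2785890-2786209. Its summit lay 152 bp upstream of the 5' end of the shorter of its transcripts. The longer one starts far upstream, so that the annotated gene spans 87.2 kb, and cox-6B did not count as bound when only the outermost 5' end was used. The summit was also nearer to the 5' end of Y71H2AM.20, a gene on the other strand (102 bp), than to that of cox-6B.

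The remaining 4 structural subunit genes of complex IV were not bound. Of these, cox-4 had 20.8 in each sample, close to the median of 18.1 in replicate 1 and 20.9 in replicate 2 over all genes with a ranked peak. For cox-6C the values were 11.9 and 34.1, and for cox-7C a ranked peak was present only in replicate 1 (12.9). The unbound cox-6A had a main peak 789 bp upstream (signal 164), and the summit of that peak lay 37 bp from the snRNA gene F54D8.7. Within 500 bp of its own 5' ends cox-6A had values of 15.5 and 20.1.

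None of the complex IV assembly genes with a cox- symbol was bound. These 8 genes, cox-10, cox-11 and cox-14 to cox-19, encode proteins known from yeast and mammals to help build the oxidase or to supply its haem and copper. Ranked peaks were present at 5 of them in each sample, with signals of 16.3 to 21.5 in replicate 1 and 10.4 to 19.7 in replicate 2. All of these values were below those of the 3 bound subunit genes in the same sample. Bound genes had been called from the same samples, so this order is not separate evidence. The group of 0 bound among 8 allows a share of up to 36.9% (exact 95% interval), and the subunit genes had 3 of 7 (42.9%, 9.90 to 81.6%). The intervals overlapped, and no test between the groups was run. The assembly gene sco-1, which the naming rule leaves out, was bound, with 61.5 in replicate 1 and 92.1 in replicate 2.

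**Figure D1:**
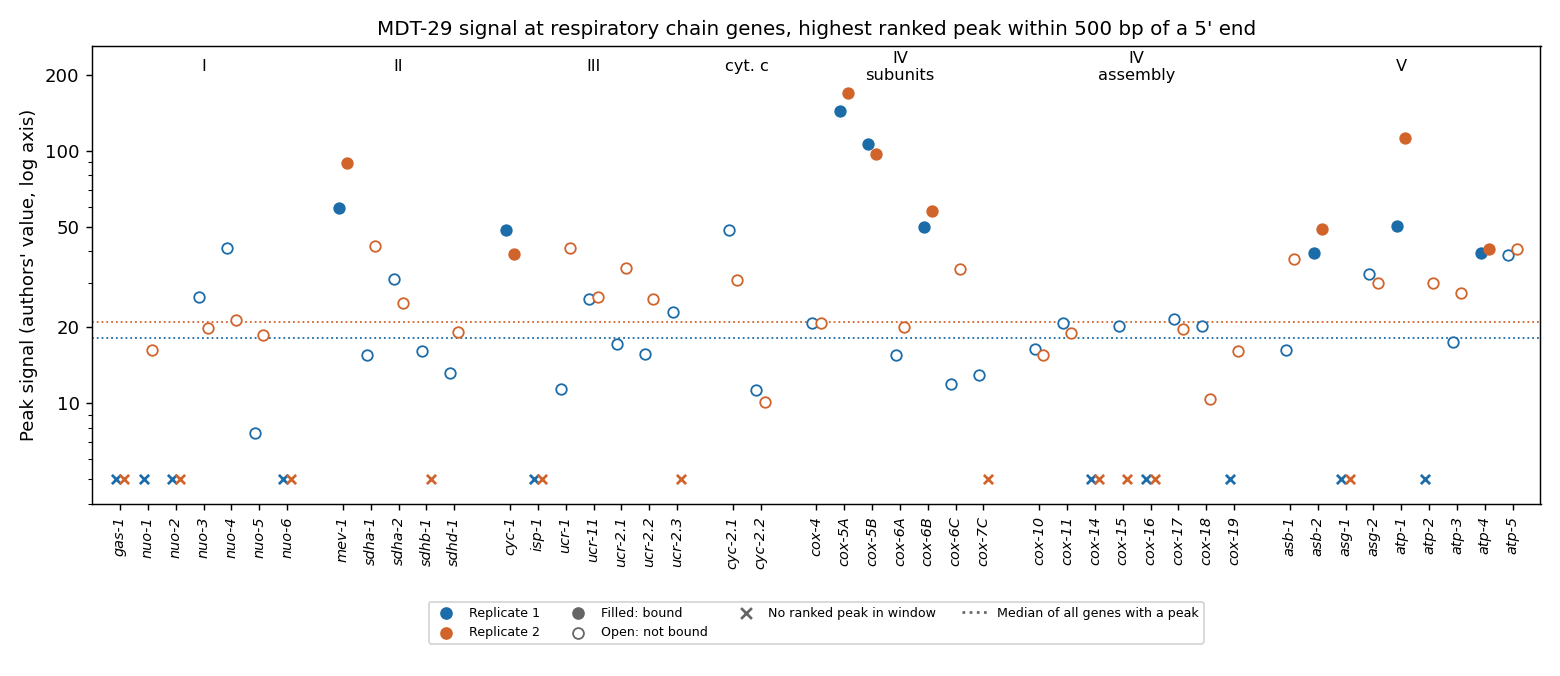
Highest peak signal (authors' value, log axis) within 500 bp of a 5' end in the ranked list of each sample, for all 45 members in order of complex. Filled points are the 8 bound genes, open points the unbound ones, crosses genes without a ranked peak in that sample, and dotted lines the medians over all genes with a peak (18.1 and 20.9). In replicate 2 the points of cox-5A, atp-1, cox-5B, mev-1, cox-6B and asb-2 stand above all unbound members, of which sdha-1 is highest at 41.8, and in replicate 1 those of cox-5A, cox-5B, mev-1, atp-1 and cox-6B do, above cyc-2.1 at 48.7.

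In complex V, 3 of 9 genes were bound (33.3%, 7.49 to 70.1%). In the main list and in replicate 1 all 3 had lower signals than cox-5A and cox-5B, while in replicate 2 atp-1 was above cox-5B. The gene atp-1, for the catalytic head's alpha subunit, had a peak at chrI:12652119-12652438 of signal 157. Its values were 50.4 in replicate 1 and 112 in replicate 2, a ratio of 2.22 where the median ratio over 8477 genes with both values was 1.17. The error at atp-1 is therefore wide, at 81.3 ± 43.6 (SD, n = 2), although both samples placed it in their thresholded lists.

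The gene asb-2, for the b subunit of the stalk that holds the head in place, had 39.4 in replicate 1 and 49.05 in replicate 2 (peak at chrX:4469731-4470050, signal 82.2). Its paralog asb-1, known for expression in the germline, was not bound and had 16.2 and 37.3. The gene atp-4 had 39.2 in replicate 1 and 40.8 in replicate 2 (peak at chrV:6426876-6427195, signal 75.3), the lowest signal of the 8 in the main list. For asb-2 and atp-4 neither sample's thresholded list held a peak within 500 bp.

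The unbound atp-5 had almost the same single-sample values as atp-4. They were 38.5 in replicate 1 and 40.7 in replicate 2, and among all genes atp-5 stood at places 701 and 947. It was bound in the authors' conservative list (peak at chrV:11123994-11124313, signal 76.4), while the nearest main summit lay 4471 bp away. The other unbound genes of the complex included atp-2, for the beta subunit of the head, with a ranked peak only in replicate 2 (30.04). For atp-3 the values were 17.4 and 27.3. The g subunit paralogs differed, in that asg-2 had 32.6 and 29.8 and asg-1 had no ranked peak in either sample.

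In complex II, only mev-1 was bound among 5 genes (20%, 0.505 to 71.6%). It encodes the cytochrome b subunit of succinate dehydrogenase and is known for mutants that are sensitive to oxygen and short-lived. Its peak at chrIII:10333990-10334309 had a signal of 142, and the values were 59.4 in replicate 1 and 89.7 in replicate 2. The summit lay 127 bp upstream of mev-1 and 132 bp from the 5' end of the divergent gene jmjd-4, so the peak marks both genes about equally. The flavoprotein gene sdha-1 had 15.5 and 41.8 and its paralog sdha-2 had 31.04 and 24.9. The iron-sulfur subunit gene sdhb-1 had a ranked peak in replicate 1 only (16.1), and sdhd-1 had 13.2 and 19.2.

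In complex III, 1 of 7 genes was bound (14.3%, 0.361 to 57.9%). This was cyc-1, which encodes cytochrome c1, with a peak at chrI:8024551-8024870 of signal 78.3. Its values were 48.4 in replicate 1 and 38.95 in replicate 2, and neither sample's thresholded list held a peak there. The gene for the Rieske iron-sulfur protein, isp-1, had no ranked peak in either sample, and the nearest main summit was 120 kb away, the largest distance among the members. The core protein gene ucr-1 had 11.4 in replicate 1 and 41.3 in replicate 2, and ucr-2.1 had 17.1 and 34.2. ucr-11 had 25.8 and 26.3.

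Of the cytochrome c genes, neither was bound. cyc-2.1 had 48.7 in replicate 1, above cyc-1, asb-2 and atp-4, and 30.6 in replicate 2, below all 8 bound members. Its nearest main summit lay 815 bp downstream of a 5' end, past the 3' end of the gene and 198 bp from the 5' end of the next gene, tctn-1. Its paralog cyc-2.2 had 11.2 and 10.2, both below the median over all genes with a ranked peak.

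In complex I, none of the 7 genes taken by the naming rule was bound, which allows a share of up to 41.0% (exact 95% interval). Complex I genes of all names, described below, had 2 of 33 bound. The genes gas-1, nuo-2 and nuo-6 had no ranked peak in either sample. gas-1 encodes a core subunit near the quinone site, and its mutants are known for sensitivity to volatile anaesthetics. nuo-4 had 41.2 in replicate 1 and 21.3 in replicate 2. nuo-3 had 26.4 and 19.8. nuo-5, for an iron-sulfur subunit, had 7.61 and 18.6, and nuo-1, for the NADH-binding subunit, had only a value in replicate 2 (16.3). In replicate 2 no complex I value exceeded 21.3, so all lay below the lowest bound member there, at 38.95. In replicate 1 nuo-4 lay above the bound asb-2 (39.4) and atp-4 (39.2). Bound genes were called from these same samples.

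**Figure D2:**
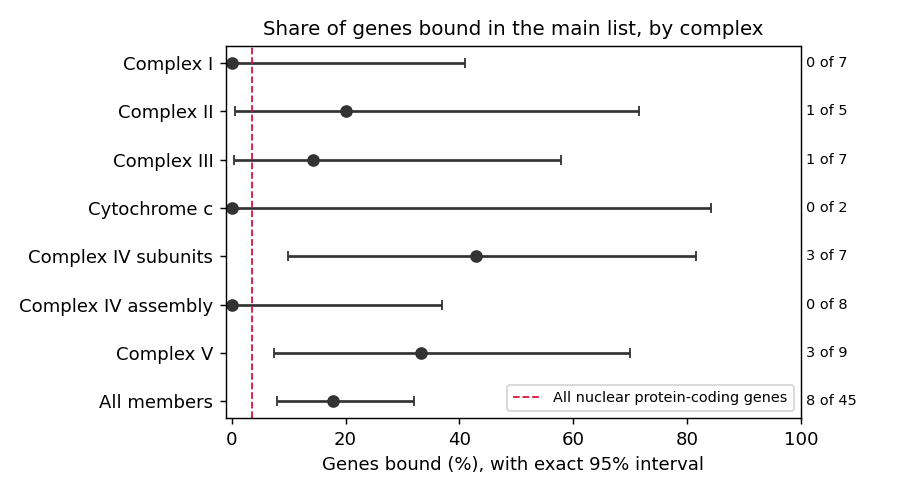
Share of genes bound in the main list (percent, points) with exact 95% intervals (bars) for each complex and for all 45 members, with the number bound of the number of genes at the right. The dashed line is the 3.54% of all nuclear protein-coding genes, and the intervals of the complexes overlap one another widely.

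The ranked lists, with 68737 peaks for replicate 1 and 74857 for replicate 2, reach far below the thresholds and so give a value to most members. A ranked peak lay within 500 bp of a 5' end for 35 of 45 members in replicate 1 and 34 in replicate 2, against 56% and 59.2% of all genes. Among members with a peak the median signal was 20.8 in replicate 1 and 28.6 in replicate 2, against 18.1 and 20.9 over all genes. Unbound members with a peak had medians of 17.4 (27 genes) and 23.1 (26 genes). Of the 45 members, 13 in replicate 1 and 14 in replicate 2 were among the 10% of genes of highest signal. In both samples there were 9 of the 45, beside 986 of all 19973 genes. These 9 were the 8 bound genes and atp-5. Since the main list was made from both samples, the high place of the bound genes is not separate evidence of binding.

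By complex, and over only the genes with a ranked peak, the median signal in replicate 1 was 38.5 for complex V, 29.9 for the 2 cytochrome c genes, 20.8 for complex IV subunits, 20.3 for complex IV assembly genes, 20.1 for complex III and 16.1 for complex II. In replicate 2 the medians were 46.0 for complex IV subunits, 39.03 for complex V, 34.2 for complex III, 33.3 for complex II, 20.4 for cytochrome c, 19.2 for complex I and 16.1 for complex IV assembly genes. Complex V was high in both samples, with 5 of its 9 genes in the highest 10% in each. Only 4 of these were the same in both samples, the 3 bound genes and atp-5. Complex I rested on 3 values in replicate 1 (median 26.4) and 4 in replicate 2. Its place among the complexes was thus not the same in the samples.

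The 8 bound genes divided by how far each sample alone supported them. Thresholded lists made from 1 sample alone were shorter, at 777 peaks (replicate 1) and 1050 (replicate 2), and each contained the same 5 members, cox-5A, cox-5B, cox-6B, mev-1 and atp-1. Over all genes, the shares were 1.69% in replicate 1 and 2.35% in replicate 2. The remaining 3, asb-2, atp-4 and cyc-1, were bound only in lists made from both samples. They had the lowest signals in the main list, 75.3 to 82.2, below its median of 99.5. In the conservative list all 8 were bound, with atp-5 as a ninth (3.5% of all genes in that list).

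The rule's margins were as follows. The bound members with summits farthest from a 5' end were cyc-1 at 289 bp and cox-5A at 286 bp, and the nearest unbound ones were cox-6A at 789 bp and cyc-2.1 at 815 bp. By score, a rescaled irreproducible discovery rate (IDR) whose minimum in the main list was 830, the lowest bound members were cyc-1 at 841 and atp-4 at 895. In the ranked series list that holds the main peaks, the highest unbound members were sdha-1 at 553, asg-2 at 441 and atp-5 at 411. The peak by which atp-5 was bound in the conservative list is a different one.

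**Figure D3:**
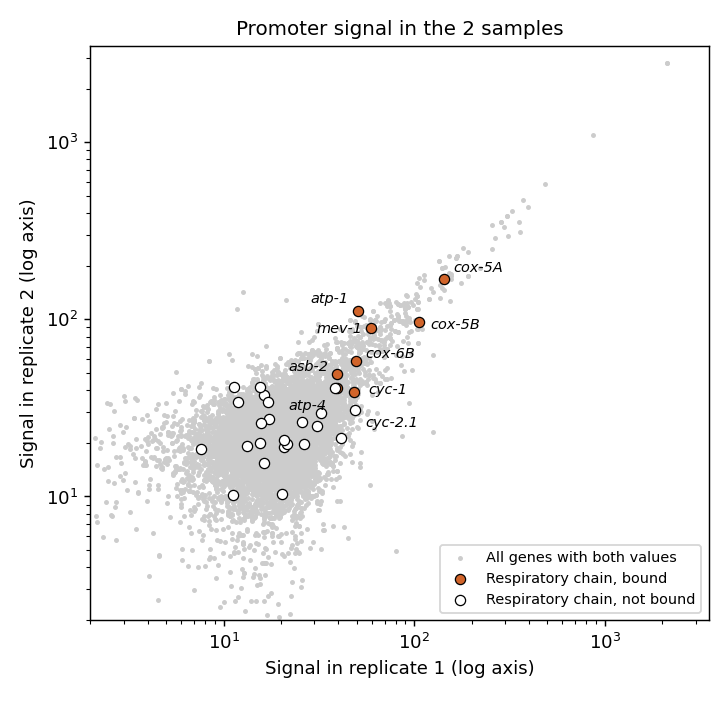
Highest peak signal within 500 bp of a 5' end in replicate 1 (x axis) and replicate 2 (y axis), both on log axes, for all 8477 genes with a value in both samples (grey) and the 31 members with both (circles, filled where bound). The bound members lie among the highest 10% of all genes in each sample, from 39.2 at atp-4 to 144 at cox-5A in replicate 1.

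Across the 31 members with a value in both samples, signal had a Spearman correlation of 0.588 between the samples, and 0.428 over the 8477 genes. Both are descriptions across genes, which share the same pair of libraries. The ratio of replicate 2 to replicate 1 ranged from 0.512 to 3.63 among members with a median of 1.06. The highest ratio was that of ucr-1. Among the bound genes the ratio ran from 0.805 at cyc-1 to 2.22 at atp-1.

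Summits lay close to the 5' ends, but on different sides of them. The median distance of the 8 was 126 bp, against 213 bp over all 708 bound genes. In complex V all 3 summits of the main list lay downstream of the 5' end. They were at 2 bp in the 5' untranslated region of atp-1 and at 76 bp in the coding sequence of atp-4. That of asb-2 lay at 125 bp, in an intron. In complexes II to IV all 5 lay upstream, from 16 bp at cox-5B to 289 bp at cyc-1. Over all bound genes 78.5% of summits were upstream. At the 8 genes the summits in the single samples lay within 44 bp of the main summit. At atp-1 they lay 8 bp (replicate 1) and 5 bp (replicate 2) upstream of it. Both samples thus placed the atp-1 summit upstream of the 5' end.

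**Figure D4:**
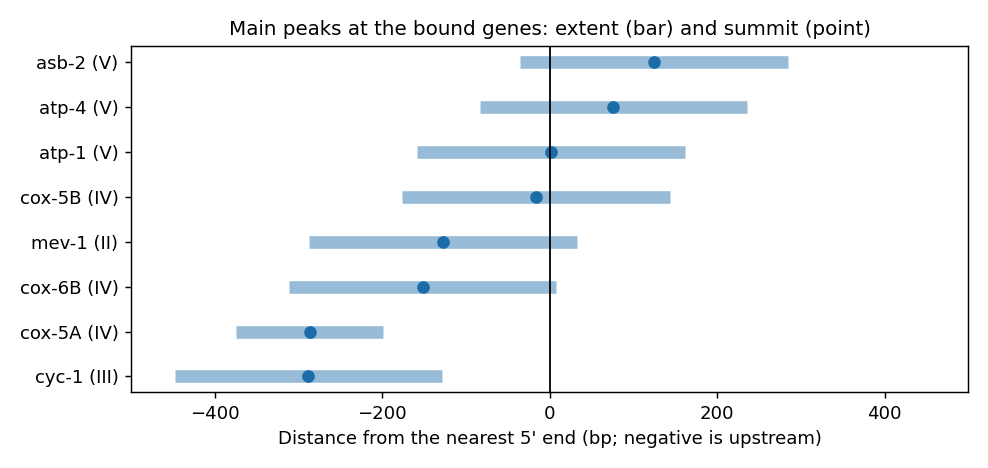
Position of the main peak (bar) and its summit (point) relative to the nearest 5' end of each of the 8 bound genes, in bp along the direction of transcription, with the complex in brackets. The 3 complex V summits lie at 2 to 125 bp downstream and the other 5 at 16 to 289 bp upstream. The summit of atp-1, at 2 bp here, lies upstream of the 5' end in each single sample.

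None of the 8 summits lay within 250 bp of a tRNA, snRNA, snoRNA or spliced leader gene, where 12.4% of all bound genes had theirs. Besides cox-6B and mev-1, the peak of atp-1 also lay within 500 bp of another gene's 5' end, that of the divergent mcrs-1 at 192 bp. The sharing of peaks was thus 3 of 8, beside 31.8% of all bound genes. In 7 of 8 cases the member was the gene with the nearest 5' end, beside 84.2% of all bound genes. Bound members lay on chromosomes I (3 of 12 members), III (3 of 11), V (1 of 5) and X (1 of 6), and none of the 5 on II or 6 on IV was bound. The share of all genes bound was not computed by chromosome and was 3.54% over all of them. Whether these small counts follow a pattern by chromosome was therefore not tested.

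Respiratory chain genes often have another gene close upstream, on the same strand or divergent. In worms, genes that follow each other on a strand at short distance are often transcribed together as an operon, so the downstream gene may lack a promoter of its own. A protein-coding gene on the same strand ended within 500 bp upstream of 16 members (35.6%, against 18.1% of all genes), and 2 of these 16 were bound, atp-4 and cyc-1. Over all genes of this arrangement 3.65% were bound. A divergent gene began within 500 bp upstream of 15 members (33.3%, against 9.21% of all genes). Of these, atp-1 and mev-1 were bound, against 7.72% of all genes so placed. No such neighbour was present at 14 members (31.1%, against 72.7% of all genes). Of these, 4 were bound (asb-2, cox-5A, cox-5B and cox-6B), against 2.99% of all genes so placed. Neighbours were counted from the outermost 5' end of each gene. For cox-6B that is not the 5' end at which it was bound, which has Y71H2AM.20 on the other strand within 500 bp upstream.

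Counted this way, the group with no neighbour within 500 bp upstream held 72.7% of all genes. The 7 complex IV subunit genes all belonged to it, cox-6B only by its outermost 5' end. Of the 8 complex IV assembly genes none did, 5 lying behind a gene on the same strand and 3 beside a divergent one. Complex I had 3, 1 and 3 genes with a same-strand, a divergent and no close neighbour. The part that gene spacing plays in the difference between the complexes was not tested.

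A set of 11 motifs was searched in 201 bp windows centred on the 8 summits, on both strands, beside all 642 promoter peaks and windows of the same length centred on the outermost 5' ends of all 19973 genes. The letters GAANNTTC, the core of the heat shock element, were at none of the 8, and at 14.6% of promoter peaks and 12.8% of 5' ends. The GATA letters TGATAA were at none of the 8, against 16.4% and 20.6%. The E-box CACGTG was likewise at none, against 8.88% and 4.40%. The CRE letters TGACGTCA (1.56% and 0.806%), the ESRE motif searched by its full consensus (4.52% and 0.661%), a GAGAGAGA repeat (3.89% and 1.88%) and the NRF1 palindrome (0 in all 3 sets) were not found there either.

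TATAAA was at atp-4 and cyc-1, against 12.8% of promoter peaks and 26.5% of 5' ends. The GC box GGGCGG was at atp-1 and mev-1, against 11.2% and 5.16%. The CCAAT box, read here as ATTGG on either strand, was at asb-2 and atp-4, against 28.8% and 35.7%. A run of 6 T was at 6 of the 8, against 47.2% and 61.2%. Overlaps between motifs were not removed, and each match is a description of letters in a window.

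The windows shared 91 words of 8 bases between at least 2 of the 8 summits, and 6 words between 3. One of the latter, AAGTGCGC, singled out after it was seen, was at mev-1, cox-6B and cyc-1, and in 4.67% of promoter peaks but 0.516% of 5' ends. At mev-1 it occurred on both strands. TGACGCAT was at cox-5A and mev-1, in 2.18% of promoter peaks and 0.330% of 5' ends. The share of G and C bases was a median of 44.8% at the 8 summits, close to the 44.3% of all promoter peaks and above the 35.8% of all 5' ends. It ranged from 36.3% at cox-6B to 51.7% at cox-5B.

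Other mitochondrial genes were read in the same way. The 7 lists of other mitochondrial genes held 128 genes, of which 7 were bound, and the counts of these lists are to be read beside the 3.54% of all genes. The lists are short, and none was tested. No gene of the mitochondrial ribosome was bound among 70, which allows a share of up to 5.13%, and none of 8 genes for ubiquinone synthesis. Among 15 citric acid cycle genes 3 were bound, aco-2 (aconitase; 45.2 in replicate 1 and 54.6 in replicate 2), fum-1 (fumarase; 33.6 and 42.6) and dld-1 (dihydrolipoamide dehydrogenase; 36.4 and 64.3). The peak of aco-2 lay nearer to eef-1B.1, a translation elongation factor gene on the other strand.

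The ADP/ATP carriers, which exchange the product of complex V across the inner membrane, had 1 bound gene of 4. This was ant-1.1, with 104 in replicate 1 and 88.1 in replicate 2, at the level of cox-5B. Of 13 genes for protein import tomm-20 was bound (30.8 and 46.7), and of 10 further assembly genes sco-1, whose relatives carry copper to complex IV (61.5 and 92.1). Among 8 subunit genes with other names nduf-11 was bound (37.03 and 58.5). A search of complex I genes named ndua-, ndub-, nduc-, ndus- and nduv-, added after the annotation was seen, found 1 of 19 bound, ndua-8, which shares its peak with 2 other genes. Complex I genes of all names thus had 2 of 33 bound (6.06%, 0.743 to 20.2%), an interval that covers the 3.54% of all genes.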

How the data were processed

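Peak positions, signal and score were used as the authors deposited them, for the assembly ce11 given in the labels. The aligner and peak caller are not given in the sources used here. The signal deposited for each peak has an unknown scale between samples, and the score deposited by the authors is a scaled IDR, kept at 830 or more in the thresholded lists. The −log10 of the global IDR, also deposited by the authors, was used for 1 alternative. Depth per sample is unknown. Of the peaks that reached the score minimum, the authors took out 59 from the main list, none at a member.

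Gene models were those of Ensembl release 115 (WBcel235, the same assembly as ce11), with 5' ends of protein-coding transcripts. Each gene took its highest peak with a summit within 500 bp. Shares have exact Clopper-Pearson 95% intervals, and no enrichment test was run. The members, lists and motifs were chosen with earlier results of these data known. Named genes were all bound members, the 3 unbound members of highest mean rank, unbound members within 1000 bp of a main summit, paralog pairs and bound genes of the other lists; further genes were named after their values were seen. The code for the assignment was run on simulated data, where 2000 of 2000 planted genes were recovered in 10 sets. The summits were planted within the same 500 bp window, so full recovery was built in. It does not show that a peak belongs to the gene it was assigned to. Python 3.11.15, numpy 2.4.6, scipy 1.17.1, pandas 2.3.3 and matplotlib 3.10.9 were used.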

Additional observations from a re-analysis of the deposited data

How the results depend on the processing

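The number of bound members was 8 and ranged from 6 to 10 with promoter windows of 250 and 1000 bp, the conservative list, the outermost 5' end, each peak counted once, peaks away from small RNA genes and the alternatives chosen after seeing the data. The share of all genes moved too, from 2.11% at 250 bp to 5.09% at 1000 bp. Of the alternatives chosen after seeing the data, 2 change the set of genes, to 10 bound of 72 with subunit genes of other names and 7 of 44 without cox-6B. It was 5 in the main peaks at or above the median signal and at a global IDR of 0.001 (1.97% and 1.63% of all genes), and 5 to 5 with each sample left out in turn (2.35% and 1.69%). In these 4 settings complex III had 0 and complex V 1. The same 5 genes were bound in each, but these settings add little to the results above. Leaving a sample out gives the single-sample thresholded lists already described. The cut at the median removes asb-2, atp-4 and cyc-1 because their main signals lie below it. Complex III also had 0 with a window of 250 bp, and cytochrome c 1 with 1000 bp. The median of the 2-sample mean signal was 26.3 over the 31 members with a value in both samples, beside 20.9 over all genes. In single samples it was 20.8 (35 members) and 28.6 (34 members), beside 18.1 and 20.9. The mean treats the samples as on a common scale, which is not known. For complex I the median was 23.1, and 15.1 with 250 bp. For complex IV assembly genes it was 17.9, and 23.4 with 1000 bp. For complex V it was 39.6, with 35.4 at 1000 bp or any overlap, and 38.5 to 39.03 in single samples. For complex II it was 28.3, and 16.1 to 33.3 in single samples. For complex IV subunits it was 38.4, with 53.8 at 250 or 1000 bp, 30.6 with any overlap, and 20.8 to 46.0 in single samples. The cause of these shifts was not tested. No paired analysis was possible because there is only 1 group. Depth is unknown, so no limit can be given for binding at the unbound members.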
